A study of Mus musculus with 12 samples.

Results

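The genes described here handle cellular iron and set how readily a cell dies by ferroptosis, the iron-dependent form of cell death in which membrane lipids are peroxidized. They are 10 of the 34513 genes in a count table from cultured mouse cells, found by their symbols: Tfrc and Slc11a2 for iron uptake, Fth1, Ftl1 and Ncoa4 for iron storage and its release, Slc40a1 for export, Ireb2 for regulation, Gpx4 and Aifm2 as suppressors of ferroptosis and Acsl4 as a gene that promotes it. RNA was sequenced from 3 murine cell lines, the nontumorigenic melanocyte line Melan-A and the tumorigenic melanoma lines B16F0 and B16F10. Each line was grown without treatment or with SX-682, an inhibitor of the chemokine receptors CXCR1 and CXCR2, which gave 6 groups of 2 libraries. Every group is a single established line in culture, and no allele, age or animal is given for any of them. The dose and time of SX-682 in these cultures are not given in the labels, and the labels do not say whether the 2 libraries of a group came from separate cultures, so the p-values measure only the spread between these libraries, which may be technical.

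Cells take up transferrin-bound iron through the transferrin receptor, move it out of endosomes through the divalent metal transporter encoded by Slc11a2, and store what they do not use in ferritin, a shell of heavy chains (Fth1) and light chains (Ftl1). Ferroportin, encoded by Slc40a1, is the known exporter of non-haem iron, and Ncoa4 brings ferritin to lysosomes so that its iron can be used. When iron is scarce, iron regulatory proteins bind short hairpins in transcripts, the iron-responsive elements: binding in the 5′ untranslated region blocks translation of ferritin and ferroportin, and binding in the 3′ untranslated region keeps the transferrin receptor transcript from being degraded. Ferroptosis is held back by Gpx4, which reduces lipid peroxides with glutathione, and by Aifm2 (also called FSP1), which regenerates reduced ubiquinone, and it is promoted by Acsl4, which loads polyunsaturated fatty acids into membrane lipids.

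The hairpins are shown because they are what joins 5 of the 10 genes on the sequence level. They were searched for in GENCODE M21 transcripts (GRCm38, strand of the transcript) as a C, any 5 bases and the loop letters CAGTGN, followed by 5 bases that pair with the 5 bases before the loop, G with T allowed. Capitals mark the 6 loop bases.
Tfrc, 3′ untranslated region, chr16:32631220-32631246, plus strand: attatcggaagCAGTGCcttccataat
Tfrc, 3′ untranslated region, chr16:32631599-32631625, plus strand: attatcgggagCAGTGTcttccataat
Tfrc, 3′ untranslated region, chr16:32631664-32631690, plus strand: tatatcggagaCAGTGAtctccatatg
Tfrc, 3′ untranslated region, chr16:32631711-32631737, plus strand: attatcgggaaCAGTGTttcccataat
Fth1, 5′ untranslated region, chr19:9982733-9982759, plus strand: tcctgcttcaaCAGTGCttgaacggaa
Ftl1, 5′ untranslated region, chr7:45459780-45459806, minus strand: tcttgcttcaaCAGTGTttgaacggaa
Slc40a1, 5′ untranslated region, chr1:45925466-45925492, minus strand: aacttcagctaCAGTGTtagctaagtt
Slc11a2, 3′ untranslated region, chr15:100395154-100395180, minus strand: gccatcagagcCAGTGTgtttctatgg
The 4 matches of Tfrc lie 883 to 1374 bases after its stop codon. The matches of Fth1, Ftl1 and Slc40a1 lie 110, 148 and 202 bases before the start codon. With all 5 pairs required, 4 of the 10 genes held a match in either region, against 160 of 21901 coding genes (0.731%). A match in a 5′ untranslated region was held by 31 coding genes (0.142%) and one in a 3′ untranslated region by 129 (0.589%). Ferritin, ferroportin and the transferrin receptor are known to carry these elements, so the excess was set in advance. Slc11a2 matched, 32 bases after its stop codon, only when 4 pairs were enough, a setting added after the letters were seen, and under it 4.9% of coding genes matched in either region. No match was found for Ncoa4, Ireb2, Gpx4, Aifm2 or Acsl4 under either setting. A match is a description of letters, and protein binding was not measured.

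**Figure D1:**
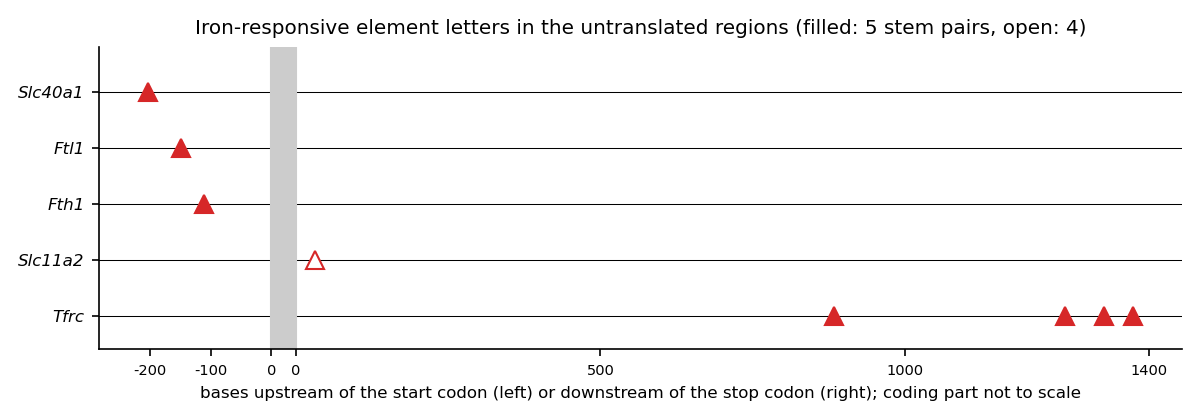
Position of each iron-responsive element match in the 5 genes that hold one, in bases before the start codon (left of the grey coding part) or after the stop codon (right), filled for 5 stem pairs and open for 4. The 4 matches of Tfrc sit 883 to 1374 bases after the stop codon, and those of Fth1, Ftl1 and Slc40a1 sit 110 to 202 bases before the start codon.

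The libraries held 48876982 to 85322092 counts on genes, and each library was closest to the other library of its group in 12 of 12 cases. The lowest count of a gene described here was 173, for Slc40a1 in a B16F10 control. Every value of these genes is therefore far above the floor of 3 counts. This floor is a cut-off on counts and takes no account of the spread between libraries. The intervals given below come from the edgeR fit and include its estimate of that spread. Levels are given as CPM (counts scaled to a library of standard size, after TMM scaling of the totals) and as RPKM, CPM per kilobase of annotated exon, where different genes are set side by side. The tests come from edgeR's quasi-likelihood fit of all 12 libraries, in which 18338 genes passed the expression filter, all 10 among them, with Benjamini-Hochberg adjustment over those genes and a threshold of 0.05. With 2 against 2 libraries the smallest two-sided p of an exact permutation test is 0.333, and the fit instead borrows its estimate of the spread from all genes and groups, which was small (a biological coefficient of variation of 2.78%). Comparisons between untreated lines and comparisons of SX-682 with control use the same control libraries and are not independent of each other. In RNA from a whole culture, fewer expressing cells and less RNA per cell cannot be told apart.

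Of 10 melanocyte markers, all were above 3 counts in both libraries of the Melan-A and B16F0 groups and 9 in those of B16F10, where Kit was at 0 CPM in both controls. Their summed level was 1354 to 1384 CPM in Melan-A controls, against 19558 to 19654 CPM in B16F0 and 25339 to 25374 CPM in B16F10 controls, and 1356 to 1364, 16471 to 16678 and 15370 to 15624 CPM with SX-682. Sox10, a transcription factor of the melanocyte lineage, was at 655 and 685 CPM in the Melan-A controls, but Tyr, the enzyme that starts melanin synthesis, was only at 0.892 and 0.759 CPM there. In the same controls Pmel (7.53 and 8.69 CPM), Slc45a2 (7.12 and 7.45), Mc1r (3.57 and 2.93) and Kit (0.127 and 0.044) were also low. Mitf, Tyrp1, Dct and Mlana were at 101 to 358 CPM. Fibroblast markers summed to 114 to 115 CPM in Melan-A controls and 93.6 to 94.9 CPM with SX-682, and to at most 16.8 CPM in the B16 lines. Leukocyte and macrophage markers summed to 25.1 to 25.3 CPM in Melan-A controls and 50.9 to 52.2 CPM with SX-682. Most of this was Cd68 (16.1 CPM at most in controls and 43.9 at least with SX-682). In Melan-A, Lyz2 was at 6.92 and 7.06 CPM in controls and 4.72 and 4.38 CPM with SX-682, and Csf1r at 2 to 2.44 CPM. Ptprc stayed at or under 0.255 CPM in every library. In the B16 groups these markers summed to 10.5 to 27 CPM, with Lyz2 at 0.528 CPM or less. Keratinocyte and epithelial, erythroid and endothelial markers summed to at most 10.4, 6.07 and 2.43 CPM in any library. The part of these markers in the results was not tested.

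In the B16 lines, SX-682 changed the transcripts of ferritin, ferroportin and the transferrin receptor more than those of the other 6 genes. Both ferritin chains rose in all 3 lines, by 1.38-fold and 1.37-fold in Melan-A, 1.57-fold and 1.69-fold in B16F0 and 1.6-fold and 1.51-fold in B16F10 for Fth1 and Ftl1. Slc40a1 rose 1.9-fold in B16F0 and 3.78-fold in B16F10, and Tfrc fell 2.26-fold in B16F0 and 1.8-fold in B16F10. Ireb2 fell and Gpx4 rose in every line. In Melan-A 6 of the 10 genes changed, 4 upward and 2 downward, where 48.2% of all genes tested changed (23.4% upward and 24.7% downward). All 10 changed in B16F0, 5 in each direction, against a background of 50.1% (25.1% upward and 25% downward). In B16F10 9 changed, 4 upward and 5 downward, against 50.8% (25.5% upward and 25.3% downward). All 10 genes are well counted, and such genes are called more often than all genes tested. In a fit of the 12326 genes with at least 10 counts in every library, 4112 rose and 4040 fell in Melan-A. The numbers were 4213 and 4197 in B16F0 and 4276 and 4462 in B16F10. The same direction was called in all 3 lines for 3 genes that rose (Fth1, Ftl1 and Gpx4), against 11.3% of all genes, and for 1 that fell (Ireb2), against 11.7%. The median log2 fold change over the 10 genes was 0.07, 0.03 and 0.01 (Melan-A, B16F0, B16F10), with 0.00 for all genes in each line, and the median absolute value was 0.11, 0.43 and 0.41, with 0.31, 0.32 and 0.36 for all genes.

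**Figure D2:**
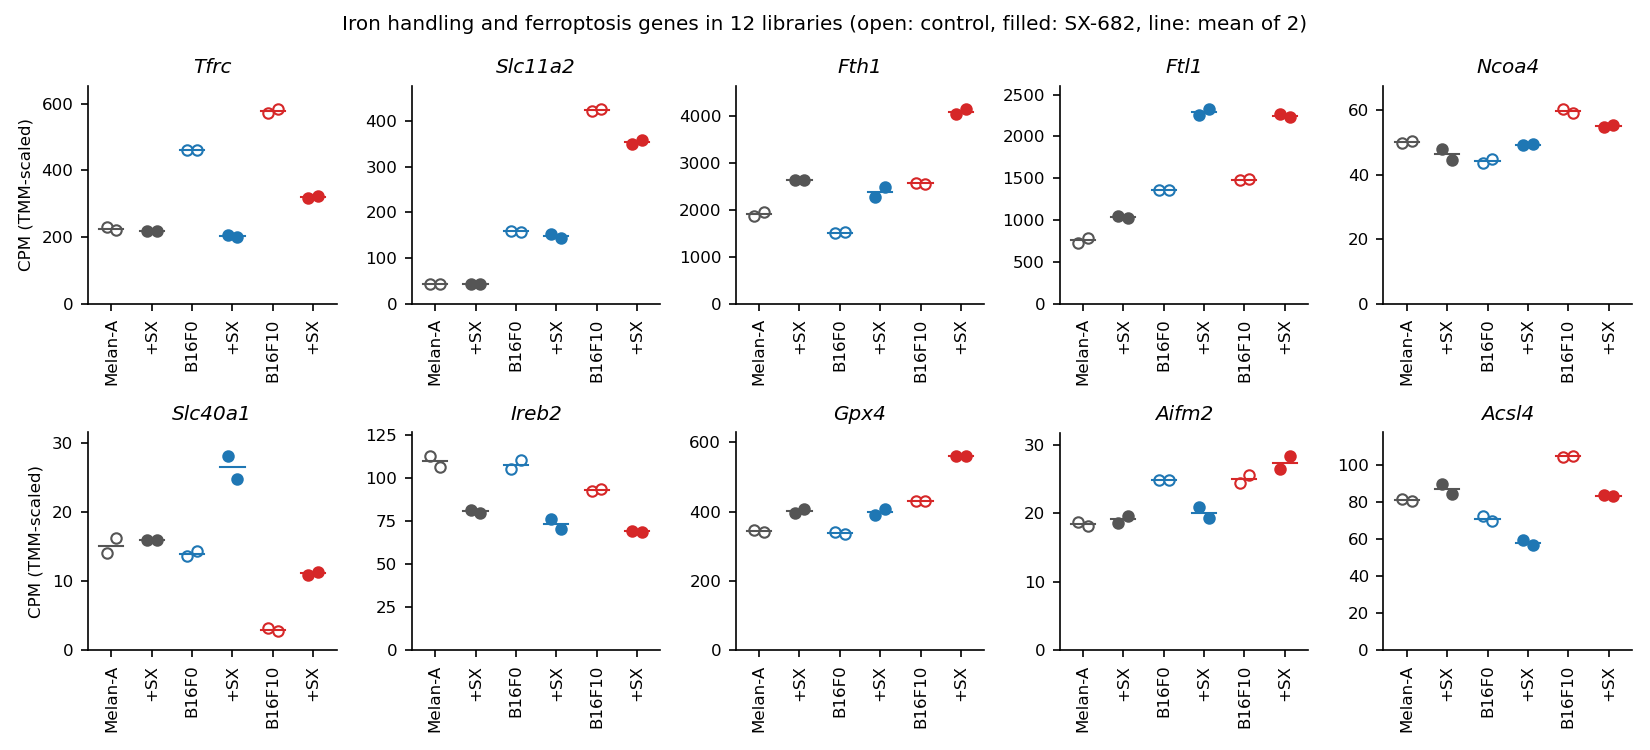
TMM-scaled CPM of each of the 10 genes in every library (open circles, control; filled circles, SX-682; line, mean of 2; grey Melan-A, blue B16F0, red B16F10; each axis starts at 0). Fth1 and Ftl1 are higher with SX-682 in each line, Tfrc is lower in both B16 lines and close to its control in Melan-A, and Slc11a2 goes from 43.4 and 42.7 CPM in Melan-A controls to 422 and 426 CPM in B16F10 controls.

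Without treatment the lines already differed in these genes. Between B16F10 and Melan-A all 10 differed, 8 higher and 2 lower in B16F10, where 74.2% of all genes differed (33.4% higher and 40.8% lower). Between B16F0 and Melan-A 7 differed, 4 higher and 3 lower in B16F0, against 75.9% of all genes (35.3% higher and 40.6% lower), and between B16F10 and B16F0 9 differed, 7 higher and 2 lower in B16F10, against 62% (30.8% higher and 31.2% lower). The median log2 difference over the 10 genes was 0.40 for B16F10 minus Melan-A, -0.03 for B16F0 minus Melan-A and 0.34 for B16F10 minus B16F0, and over all genes it was -0.10, -0.06 and -0.00. These shares of all genes are large because the lines are far apart and the replicate spread is small, so a call by itself says little about a gene, and the sizes below matter more.

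On the RPKM scale, ferritin and Gpx4 were the most abundant of the 10 transcripts in every untreated line. In Melan-A controls Ftl1 (545 and 582 RPKM) and Fth1 (538 and 564 RPKM) overlapped and could not be ordered on this scale. Below them came Gpx4 (mean 199.9 RPKM), Tfrc (36.4), Acsl4 (15.0), Ireb2 (11.6), Slc11a2 (6.77), Ncoa4 (5.35), Aifm2 (4.47) and Slc40a1 (1.68). The libraries of neighbours in this order did not overlap below the ferritin chains. In B16F0 and B16F10 controls Slc11a2 came directly below Tfrc, at 24.9 and 66.8 RPKM, above Acsl4 (13.1 and 19.4 RPKM), and Slc40a1 was last, at 1.56 and 0.328 RPKM. Ncoa4 and Aifm2 were close to each other in B16F10, at 6.37 and 6.06 RPKM. RPKM divides by all annotated exon bases of a gene (3469 for Fth1 and 1340 for Ftl1), so a gene with long minor transcripts is given too low a level.

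Tfrc (chr16:32608920-32632794) encodes the transferrin receptor. It was at 229 and 222 CPM in Melan-A controls, 460.4 and 460.1 CPM in B16F0 controls and 571 and 583 CPM in B16F10 controls. With SX-682 it was at 218.1 and 218.2 CPM in Melan-A, 207 and 199.6 CPM in B16F0 and 317 and 324 CPM in B16F10. In every line both treated libraries lay below both controls, though by little in Melan-A. The treated B16F0 libraries lay below every Melan-A library. In the untreated lines Tfrc was 2.04-fold higher in B16F0 than in Melan-A (log2 1.03, SE 0.025, adjusted p = 2e-25) and higher again in B16F10 than in B16F0 (log2 0.33, SE 0.024, adjusted p = 6.1e-13). SX-682 lowered it in B16F0 (log2 fold change -1.18, SE 0.025, adjusted p = 2.5e-25) and in B16F10 (-0.85, SE 0.025, adjusted p = 2.6e-22). In Melan-A the log2 fold change was -0.05 with a 95% interval of -0.10 to 0.01 (adjusted p = 0.14). The response differed between every pair of lines: by -1.13 on the log2 scale between B16F0 and Melan-A (adjusted p = 1.4e-20), -0.80 between B16F10 and Melan-A (adjusted p = 2.6e-17) and 0.33 between B16F10 and B16F0 (adjusted p = 1.2e-08). The Tfrc transcript is the one with 4 matches to the hairpin letters in its 3′ untranslated region. Elements with other loop letters were not searched for, and the part of the matches in the fall was not tested.

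Slc11a2 (chr15:100387898-100425072), the divalent metal transporter, had the largest difference between untreated lines among the 10 genes, that of B16F10 and Melan-A, while between B16F10 and B16F0 Slc40a1 differed more. Controls were at 43.4 and 42.7 CPM in Melan-A, 160 and 157 CPM in B16F0 and 422 and 426 CPM in B16F10. Treated libraries were at 42 and 42.3 CPM in Melan-A, 153 and 144 CPM in B16F0 and 350.4 and 360 CPM in B16F10. Thus the 3 lines were apart from one another with and without SX-682, with no overlap. B16F10 exceeded Melan-A 9.86-fold (log2 3.30, SE 0.031, adjusted p = 1.5e-35) and B16F0 2.68-fold (log2 1.42, SE 0.028, adjusted p = 5.9e-27), and B16F0 exceeded Melan-A 3.68-fold (adjusted p = 1.6e-29). SX-682 lowered it slightly, with a log2 fold change of -0.26 in B16F10 (SE 0.027, adjusted p = 2e-09) and -0.09 in B16F0 (SE 0.029, adjusted p = 0.0083), and the value in Melan-A was -0.03 (95% interval -0.10 to 0.04). The small fall in B16F0 was not called without control replicate 1 (adjusted p = 0.082) or SX-682 replicate 2 (adjusted p = 0.18). The fall in B16F10 was larger than the change in Melan-A (difference -0.23, adjusted p = 9.9e-05) and in B16F0 (difference -0.16, adjusted p = 0.0017). A gene on the other strand, Gm5475, shares 6.33% of the exon bases of Slc11a2 and had at most 50 counts in a library.

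Fth1 (chr19:9980598-9985098), the ferritin heavy chain with ferroxidase activity, was at 1865 and 1955 CPM in Melan-A controls, 1501 and 1526 CPM in B16F0 controls and 2584 and 2557 CPM in B16F10 controls. With SX-682 it reached 2635 and 2646 CPM in Melan-A, 2272 and 2496 CPM in B16F0 and 4056 and 4152 CPM in B16F10. Treated libraries exceeded the controls of their line in every case. The rise had a log2 size of 0.47 in Melan-A (SE 0.026, adjusted p = 3.2e-15), 0.66 in B16F0 (SE 0.026, adjusted p = 1.1e-18) and 0.68 in B16F10 (SE 0.026, adjusted p = 3.5e-19). It was larger in B16F0 and B16F10 than in Melan-A, by 0.19 (adjusted p = 0.00015) and 0.21 (adjusted p = 4e-05), and the B16 lines differed by 0.02 (95% interval -0.06 to 0.10), a difference that was called without B16F0 SX-682 replicate 2 (0.08, adjusted p = 0.013). Untreated, Fth1 was lowest in B16F0, 1.26-fold below Melan-A (adjusted p = 1.2e-12) and 1.7-fold below B16F10 (adjusted p = 6.9e-21).

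Ftl1 (chr7:45457944-45459884), the ferritin light chain that aids mineral formation in the shell, was at 730.3 and 780.4 CPM in Melan-A controls, 1359 and 1357 CPM in B16F0 controls and 1475 and 1492 CPM in B16F10 controls. SX-682 libraries held 1044 and 1019 CPM in Melan-A, 2260 and 2323 CPM in B16F0 and 2264 and 2227 CPM in B16F10. Again no treated library overlapped the controls of its line. The log2 rise was 0.45 in Melan-A (SE 0.023, adjusted p = 3e-16), 0.76 in B16F0 (SE 0.023, adjusted p = 1e-21) and 0.60 in B16F10 (SE 0.023, adjusted p = 1.9e-19), and each pair of lines differed (0.31 for B16F0 minus Melan-A, 0.15 for B16F10 minus Melan-A and -0.16 for B16F10 minus B16F0, with the largest adjusted p of the 3 at 0.00043). Unlike the heavy chain, the light chain was higher in both untreated B16 lines than in Melan-A, 1.8-fold in B16F0 (adjusted p = 4.6e-24) and 1.96-fold in B16F10 (adjusted p = 1.5e-25). The ratio of Fth1 to Ftl1 on the RPKM scale was 0.977 ± 0.013 in untreated Melan-A, 0.431 ± 0.0055 in untreated B16F0 and 0.669 ± 0.011 in untreated B16F10 (SD, n = 2 each). With SX-682 it was 0.989 ± 0.02, 0.402 ± 0.019 and 0.706 ± 0.02 (SD, n = 2 each), so the lines kept their order while both chains rose. The size of the ratio depends on the annotated exon bases, 3469 for Fth1 and 1340 for Ftl1. On the CPM scale Fth1 exceeded Ftl1 in every library. The ratio therefore compares groups and does not say which chain was more abundant.

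Reads of the ferritin genes could be shared with copies elsewhere in the genome. The 3 annotated Ftl1 copies together held 0.522% to 0.692% of the counts of Ftl1, most of them in Ftl1-ps1 (360 to 968 counts), and the 7 Fth1 copies at most 0.0211%. With the copies added to their parent genes, a setting chosen after the values were seen, no call of the 10 genes changed. Shares this small, and that of at most 2.9% for Gpx4, could hardly change a call. Reads left out before counting because they map to more than 1 place would not be seen in this setting. Gm10252, on the other strand, shares 26.5% of the exon bases of Ftl1 and had 5 to 55 counts, and Gm22133, a microRNA entry on the same strand, shares 8.13% of them. Whether the counting used strand, and how it treated reads that map to more than 1 place, is not given in the sources used here.

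Ncoa4 (chr14:32159865-32179855), the cargo receptor for ferritin breakdown, changed little and not in 1 direction. It was at 49.8 and 50.4 CPM in Melan-A controls and 48.0 and 44.6 CPM with SX-682, at 43.5 and 44.98 CPM in B16F0 controls and 49.1 and 49.5 CPM with SX-682, and at 60.3 and 59.0 CPM in B16F10 controls and 54.8 and 55.6 CPM with SX-682. The log2 change was -0.12 in Melan-A (SE 0.041, adjusted p = 0.021), 0.16 in B16F0 (SE 0.043, adjusted p = 0.0031) and -0.11 in B16F10 (SE 0.042, adjusted p = 0.025). The rise in B16F0 differed from the other lines, by 0.27 from Melan-A (adjusted p = 0.00053) and by -0.27 for B16F10 minus B16F0 (adjusted p = 8e-04). The call in Melan-A was lost with DESeq2 (adjusted p = 0.055), with upper quartile scaling (0.086) and without the expression filter (0.059), and the call in B16F10 was lost with upper quartile scaling (log2 -0.08, adjusted p = 0.12). In any line the call was lost when certain single libraries were left out (adjusted p of 0.05 to 0.46). Untreated B16F10 was 1.35-fold above B16F0 (log2 0.43, SE 0.042, adjusted p = 2.6e-10).

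Slc40a1 (chr1:45908068-45926523), the iron exporter ferroportin, was the least abundant of the 10 transcripts in each untreated line on the RPKM scale, and of the 10 it rose most with SX-682 in B16F0 and B16F10. Controls were at 14.0 and 16.3 CPM in Melan-A, 13.6 and 14.4 CPM in B16F0 and 3.19 and 2.71 CPM in B16F10, the last from 193 and 173 counts. Libraries with SX-682 were at 16 and 15.99 CPM in Melan-A, 28.2 and 24.9 CPM in B16F0 and 10.9 and 11.4 CPM in B16F10. Both treated B16F0 libraries were above all Melan-A libraries, and the treated B16F10 libraries were still below them. The log2 rise was 0.93 in B16F0 (SE 0.079, adjusted p = 3.6e-11) and 1.92 in B16F10 (SE 0.11, adjusted p = 2.5e-15), and in Melan-A, where treated and control libraries overlapped, the value was 0.08 (95% interval -0.08 to 0.24). Each pair of lines differed in this response, by 0.85 for B16F0 minus Melan-A (SE 0.11, adjusted p = 4e-07), 1.84 for B16F10 minus Melan-A (SE 0.14, adjusted p = 4e-12) and 0.99 for B16F10 minus B16F0 (SE 0.14, adjusted p = 1.3e-06). Untreated B16F10 held 5.15-fold less than Melan-A (adjusted p = 7.8e-19) and 4.75-fold less than B16F0 (adjusted p = 1e-17), and B16F0 and Melan-A differed by a log2 value of -0.12 (95% interval -0.28 to 0.05). That last difference was called without Melan-A control replicate 1 (log2 -0.22, adjusted p = 0.028) and was 0.00 without Melan-A control replicate 2.

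The range of Slc40a1 over the 12 libraries was the widest of the 10 genes, 3.37 on the log2 CPM scale, with Slc11a2 next at 3.34. Among 9361 genes with a mean log2 CPM of at least 3, the genes with the most similar pattern were Cntrob (Pearson r = 0.979), Cuedc1 (r = 0.971) and Kansl1 (r = 0.964). These values are over 12 libraries in 6 groups that share lines and treatment, are given as a description, and say nothing of shared function or control.

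**Figure D3:**
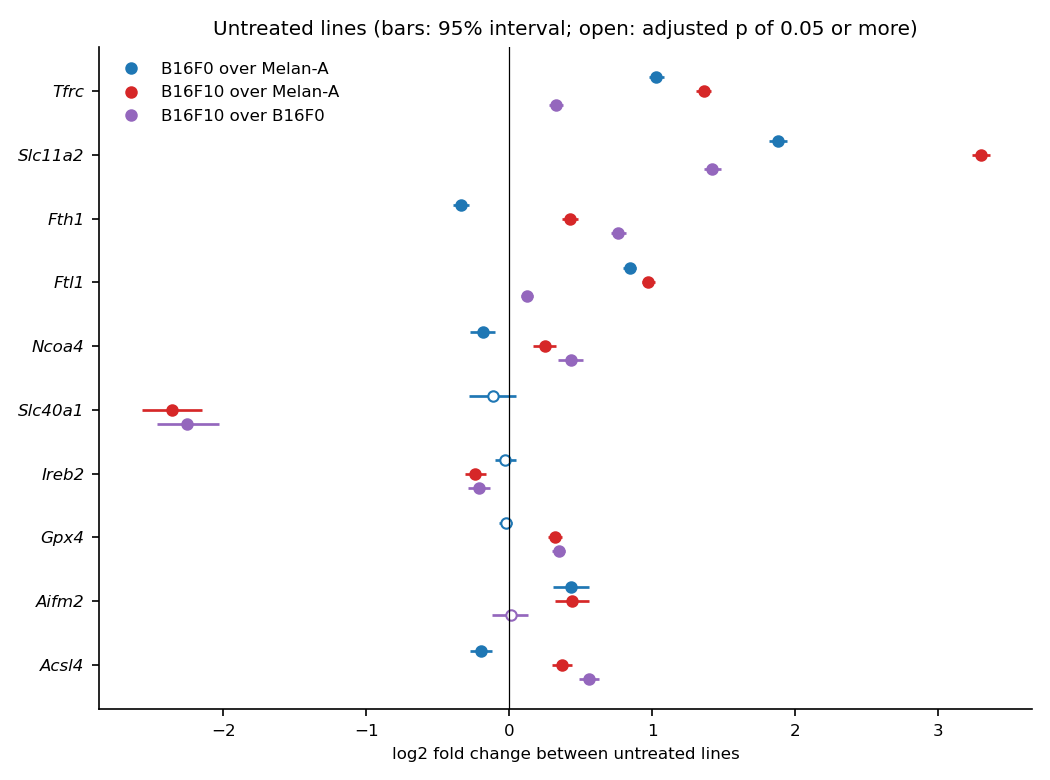
Log2 fold change between untreated lines for each of the 10 genes (points, edgeR estimate; bars, 95% interval; filled, adjusted p under 0.05; n = 2 libraries per group). Slc11a2 has the largest value, 3.30 for B16F10 over Melan-A, and Slc40a1 the lowest, -2.36 for the same pair.

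Ireb2 (chr9:54863789-54912530) encodes iron regulatory protein 2, which binds iron-responsive elements and is itself degraded when iron is plentiful. It was at 113 and 106 CPM in Melan-A controls and 81.4 and 79.8 CPM with SX-682, at 105 and 110.5 CPM in B16F0 controls and 76.4 and 70.5 CPM with SX-682, and at 92.4 and 93.8 CPM in B16F10 controls and 69.2 and 68.9 CPM with SX-682. Treated and control libraries did not overlap in any line. The log2 fall was -0.44 in Melan-A (SE 0.037, adjusted p = 2.1e-11), -0.55 in B16F0 (SE 0.038, adjusted p = 4.4e-13) and -0.43 in B16F10 (SE 0.039, adjusted p = 9.5e-11). No difference between lines in this fall passed the threshold, with 95% intervals of -0.21 to 0.00 for B16F0 minus Melan-A, -0.10 to 0.12 for B16F10 minus Melan-A and 0.01 to 0.23 for B16F10 minus B16F0 (adjusted p = 0.11). The difference between B16F0 and Melan-A was called when Melan-A control replicate 1, B16F0 control replicate 1 or B16F0 SX-682 replicate 1 was left out (adjusted p = 0.027, 0.049 and 0.013), and that between B16F10 and B16F0 without B16F0 SX-682 replicate 1 (adjusted p = 0.018). Untreated B16F10 was 1.18-fold below Melan-A (adjusted p = 1.5e-06).

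Gpx4 (chr10:80047166-80056439), the glutathione peroxidase of membrane lipids, was at 348 and 342 CPM in Melan-A controls, 341 and 337 CPM in B16F0 controls and 431 and 430.3 CPM in B16F10 controls. With SX-682 it was at 396 and 407 CPM in Melan-A, 391 and 408 CPM in B16F0 and 559.6 and 561 CPM in B16F10. All treated libraries were above their controls. The log2 rise was 0.22 in Melan-A (SE 0.024, adjusted p = 3.7e-09), 0.24 in B16F0 (SE 0.024, adjusted p = 9.9e-10) and 0.38 in B16F10 (SE 0.024, adjusted p = 2.1e-14), larger in B16F10 than in Melan-A (difference 0.16, adjusted p = 0.00029) and in B16F0 (difference 0.14, adjusted p = 0.0014). Untreated B16F10 was above Melan-A by a log2 value of 0.32 (adjusted p = 3.6e-13). B16F0 and Melan-A differed by -0.02 on the log2 scale (95% interval -0.07 to 0.02), a value that was called with DESeq2 and RLE scaling (-0.06 in each, adjusted p = 0.029 and 0.035) and with a minimum of 10 counts per library (-0.07, adjusted p = 0.012), and turned to 0.01 with upper quartile scaling. The 2 annotated pseudogene copies held 2.27% to 2.9% of the counts of Gpx4.

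Aifm2 (chr10:61715263-61739260), the suppressor that acts through ubiquinone, was at 18.7 and 18.1 CPM in Melan-A controls and 18.6 and 19.6 CPM with SX-682, at 24.9 and 24.8 CPM in B16F0 controls and 20.9 and 19.2 CPM with SX-682, and at 24.4 and 25.6 CPM in B16F10 controls and 26.4 and 28.4 CPM with SX-682. Only in B16F0 did treated libraries lie below their controls. It fell there (log2 -0.31, SE 0.062, adjusted p = 1e-04), and the values in Melan-A and B16F10 were 0.05 (95% interval -0.07 to 0.18) and 0.13 (95% interval 0.01 to 0.26, adjusted p = 0.068). The response in B16F0 differed from that in Melan-A by -0.36 (adjusted p = 0.0013) and from that in B16F10 by 0.44, taken as B16F10 minus B16F0 (adjusted p = 0.00018). In B16F10 the change was called with upper quartile scaling (adjusted p = 0.02) and in the fit of that line alone (adjusted p = 0.045). Both untreated B16 lines were above Melan-A, 1.35-fold and 1.36-fold (adjusted p = 1.4e-07 in each). A gene on the other strand, H2afy2, shares 5.65% of its exon bases and had at most 95 counts.

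Acsl4 (chrX:142317993-142390535), which activates arachidonic and adrenic acid for membrane lipids, was at 81.5 and 80.7 CPM in Melan-A controls and 89.9 and 84.5 CPM with SX-682, at 72.2 and 69.7 CPM in B16F0 controls and 59.3 and 56.8 CPM with SX-682, and at 104 and 105 CPM in B16F10 controls and 83.6 and 83.4 CPM with SX-682. Treated libraries lay above their controls in Melan-A and below them in both B16 lines. The log2 change was -0.29 in B16F0 (SE 0.037, adjusted p = 1.2e-07), -0.33 in B16F10 (SE 0.036, adjusted p = 3.8e-09) and 0.10 in Melan-A (SE 0.035, adjusted p = 0.014). The small rise in Melan-A was not called without control replicate 2 (adjusted p = 0.056) or SX-682 replicate 1 (adjusted p = 0.22). Each B16 line differed from Melan-A in the response, by -0.39 for B16F0 (adjusted p = 3.3e-07) and -0.43 for B16F10 (adjusted p = 3.7e-08), and the B16 lines differed from each other by -0.04 (95% interval -0.14 to 0.07). Untreated B16F10 held the most, 1.47-fold above B16F0 (adjusted p = 1.8e-14).

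**Figure D4:**
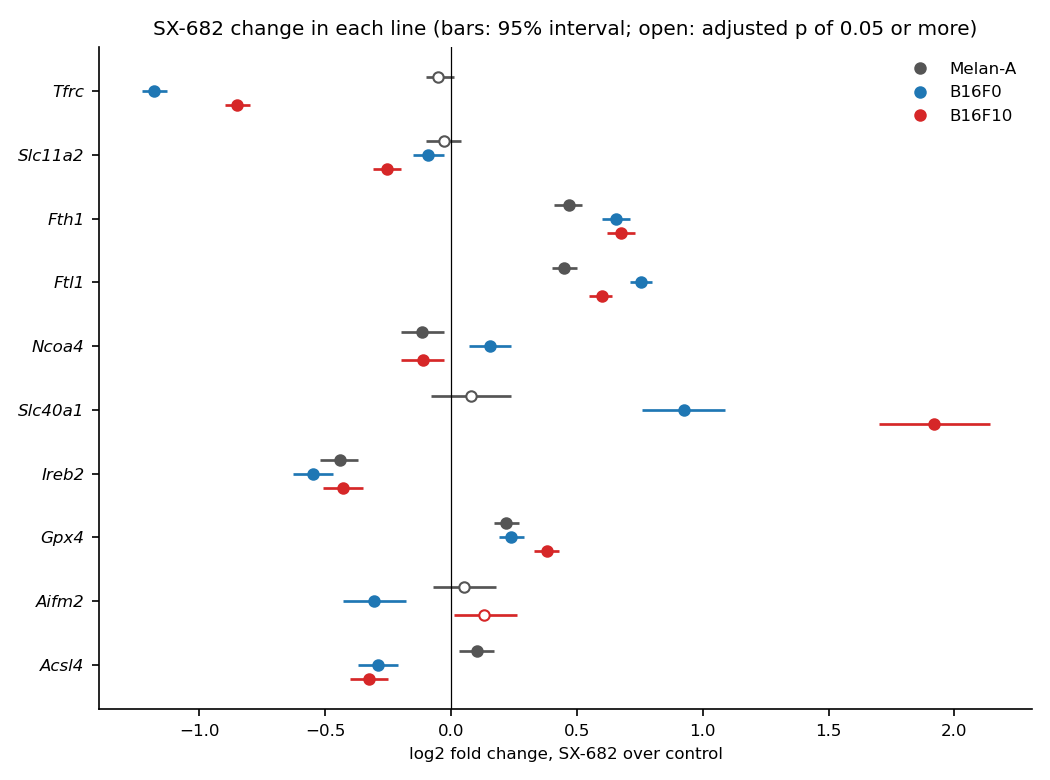
Log2 fold change of SX-682 over control for each of the 10 genes in Melan-A (grey), B16F0 (blue) and B16F10 (red), with 95% intervals from the edgeR fit (filled, adjusted p under 0.05; n = 2 libraries per group). Fth1, Ftl1 and Gpx4 lie above 0 and Ireb2 below 0 in all 3 lines, while Tfrc and Slc40a1 lie near 0 only in Melan-A.

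The difference of the SX-682 response between lines passed the threshold for 7 of the 10 genes in each pair. Between B16F0 and Melan-A 4 differences were positive and 3 negative, where 34.4% of all genes differed (17.7% positive and 16.6% negative). Between B16F10 and Melan-A the split was also 4 and 3, against 33.8% (17.8% and 16%), and between B16F10 and B16F0 it was 4 and 3, against 30.3% (15.3% and 14.9%). Of the 12326 genes with at least 10 counts in every library, 3152 differences were positive and 3029 negative for B16F0 minus Melan-A. For B16F10 minus Melan-A they were 3023 and 3096, and for B16F10 minus B16F0 2615 and 2932. Ireb2 was called in no pair, and Tfrc, Ftl1 and Slc40a1 in every pair.

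The other genes of these pathways were described through 4 lists with 85 genes, of which 75 could be tested. SX-682 raised 26 and lowered 31 of them in Melan-A, where 23.4% of all genes were raised and 24.7% lowered. It raised 32 and lowered 29 in B16F0, against 25.1% and 25% of all genes, and raised 28 and lowered 32 in B16F10, against 25.5% and 25.3%. In each line the share called is higher among genes with at least 10 counts in every library, as given above. In all 3 lines 19 were raised and 19 lowered, against 11.3% and 11.7% of all genes, and 43 were called in each line in any direction, against 28%. Hamp, Heph, Hephl1, Slc39a8, Alox5, Alox12, Alox15, Ptgs2 and Nox1 had at most 18 counts in any library and were not tested, and Tf was not analysed here.

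In the list of iron uptake, export and transport, with 15 genes tested, 5 rose in all 3 lines and 2 fell (11.3% and 11.7% of all genes), and 8 were not called in 1 direction in each. The median log2 fold change was 0.14, 0.29 and 0.42 (Melan-A, B16F0, B16F10). Slc25a37 (mitoferrin 1), which brings iron into mitochondria, went from 17.3 and 18.3 to 28.4 and 27.8 CPM in Melan-A, from 52.6 and 56.2 to 114 and 111 CPM in B16F0 and from 16.8 and 18.8 to 30.3 and 28.4 CPM in B16F10, log2 rises of 0.66, 1.05 and 0.72. Steap2, a metalloreductase, rose by 0.14, 0.75 and 0.52. Flvcr1, a haem and choline transporter, fell, with log2 fold changes of -0.26, -0.77 and -1.24 in Melan-A, B16F0 and B16F10, and Cp, the ferroxidase ceruloplasmin, fell with -0.48, -0.42 and -0.40. The largest adjusted p among these calls was 0.0068.

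Among 20 genes of iron regulation, haem and iron-sulfur clusters, 5 rose and 6 fell in all 3 lines (11.3% and 11.7% of all genes), with medians of 0.02, -0.13 and -0.04. Hmox1, the haem oxygenase that frees iron from haem, rose from 284 and 291 to 626 and 632 CPM in Melan-A, from 108 and 106 to 218 and 223 CPM in B16F0 and from 55.5 and 58.3 to 131 and 133 CPM in B16F10, 2.19-fold, 2.06-fold and 2.32-fold. Blvrb, a biliverdin reductase of the same route, rose by log2 values of 0.50, 0.80 and 1.29, and Hif1a by 0.91, 0.30 and 0.27. Aco1, which encodes the other iron regulatory protein, had values of -0.22 (adjusted p = 9.9e-06), -0.09 (adjusted p = 0.073) and -0.34 (adjusted p = 2.1e-09). Fbxl5, the iron-sensing subunit of the ubiquitin ligase that degrades the Ireb2 protein, rose by 0.39, 0.17 and 0.58, with the largest adjusted p at 0.0027.

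The 24 other genes listed as ferroptosis suppressors had median log2 fold changes of -0.14, -0.02 and -0.09. Of them, 5 rose and 6 fell in every line (11.3% and 11.7% of all genes). Among those with a mean log2 CPM of at least 1 that were called in every line, the largest changes averaged over the lines were those of the subunits of the cystine importer. Slc7a11, its transport subunit, went from 50.4 CPM in both controls to 88.8 and 91.2 CPM in Melan-A, from 81.3 and 83.7 to 345 and 334 CPM in B16F0 and from 21.4 and 22 to 141 and 139 CPM in B16F10, and the rise differed between every pair of lines (1.21 for B16F0 minus Melan-A, 1.85 for B16F10 minus Melan-A and 0.65 for B16F10 minus B16F0, with the largest adjusted p at 1e-11). Slc3a2, the partner subunit that it shares with other amino acid transporters, rose 3.23-fold, 2.88-fold and 4.51-fold, and Gss, glutathione synthetase, 1.47-fold, 1.43-fold and 1.46-fold. Dhcr7 fell, with log2 values of -0.32, -0.40 and -0.85. It turns 7-dehydrocholesterol, a sterol known to be protective against lipid peroxidation, into cholesterol, and so does not itself do what the name of its list says. The list also holds Keap1 and Trp53, so its counts and medians do not describe suppressors alone.

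The 16 tested genes listed as ferroptosis drivers and markers had median log2 fold changes of 0.07, 0.04 and -0.06. Of them, 4 rose and 5 fell in every line (11.3% and 11.7% of all genes). Chac1, which degrades glutathione and is a known target of the amino acid stress response, rose from 15.8 and 15.9 to 45.6 and 47.1 CPM in Melan-A, from 17.8 and 18 to 61.7 and 60.9 CPM in B16F0 and from 4.1 and 4.6 to 75.6 and 74.9 CPM in B16F10. These are 2.93-fold, 3.43-fold and 17.3-fold rises, and the one in B16F10 exceeded those in Melan-A and B16F0 by log2 values of 2.56 (adjusted p = 1.9e-20) and 2.33 (adjusted p = 6.4e-19). Cyb5r1, a reductase that can feed electrons into lipid peroxidation, rose by 0.90, 1.07 and 1.42, and Zfp36, a protein that destabilizes AU-rich transcripts, by 0.76, 1.46 and 1.06. Hmgb1, a nuclear protein that dying cells release, fell, with -0.70, -0.52 and -0.60. This list mixes drivers with markers, and a place in it does not show that a gene such as Zfp36 promotes ferroptosis. The counts and medians of the list therefore do not describe drivers alone.

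**Figure D5:**
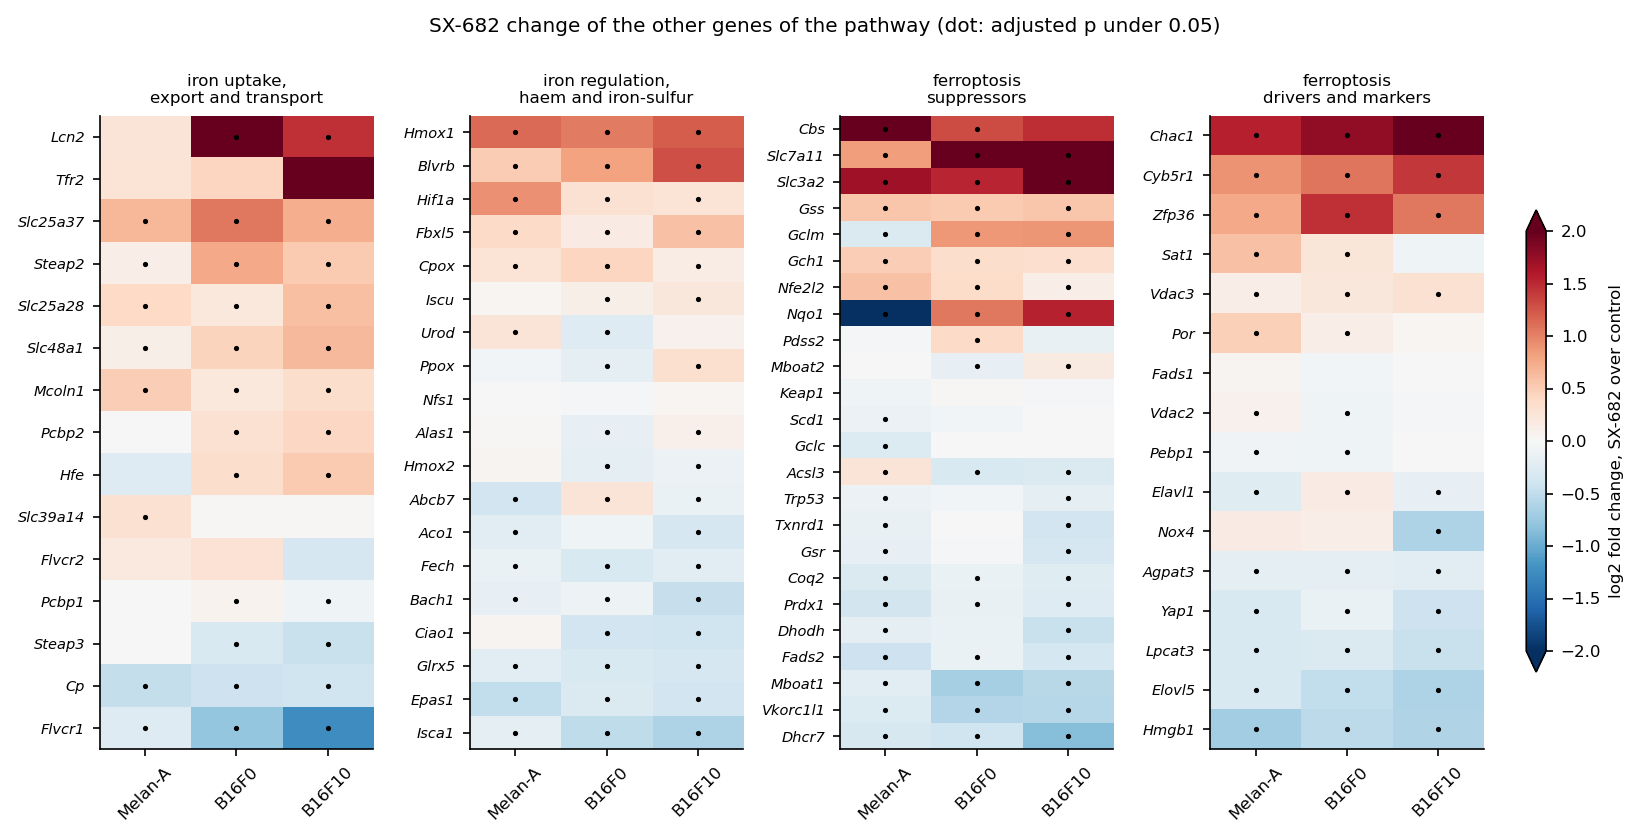
Log2 fold change of SX-682 over control in each line for the tested genes of the 4 lists, with 1 gene that is not reported here left out (colour, limited to -2 to 2; dot, adjusted p under 0.05). Rises and falls are mixed in every list, with 19 of 75 genes raised and 19 lowered in all 3 lines.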

How the data were processed

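The authors deposited read counts per gene without normalization for 12 libraries, with GRCm38 coordinates. The submitters' processing notes name cutadapt, STAR, DESeq2 and mm10; the counting program and its strand setting are not given in the sources used here. Libraries were grouped by their labels. In R 4.3.3, edgeR 4.0.16 was fitted to all libraries without a block (TMM, filterByExpr, quasi-likelihood F-test, Benjamini-Hochberg at 0.05), with standard errors from the F statistic. Exon length and coordinates of 33821 of the 34513 genes matched GENCODE M21. DESeq2 1.42.0, other scalings, filters, thresholds, separate fits, a replicate block and leaving out each library were alternatives. The tests were run on simulated counts beforehand, with changed genes drawn at all levels of expression. The main fit recovered 33 of 60 genes changed 1.25-fold, 47 of 61 changed 1.5-fold and 53 of 62 changed 2-fold. A gene that is not called may therefore still have changed. Same-numbered libraries did not pair (correlations of at most 0.0244). The replicates differed by more than sampling noise. The 10 genes and all lists, marker lists included, were chosen with earlier results of these data known. From each list up to 4 genes called in all 3 lines in 1 direction (mean log2 CPM of at least 1, largest mean absolute change first) were named, besides Slc7a11, Hmox1, Aco1, Fbxl5 and Chac1. Of the genes this rule takes, 1 is not reported here.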

Additional observations from a re-analysis of the deposited data

Results flagged for a closer look

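In 21 cases the SX-682 response of 1 of the 10 genes differed between a pair of lines by the test of the difference itself (edgeR, adjusted p under 0.05), given here as the log2 fold change in the first line minus that in the second. For B16F0 minus Melan-A the differences were -1.13 for Tfrc, 0.19 for Fth1, 0.31 for Ftl1, 0.27 for Ncoa4, 0.85 for Slc40a1, -0.36 for Aifm2 and -0.39 for Acsl4. For B16F10 minus Melan-A they were -0.80 for Tfrc, -0.23 for Slc11a2, 0.21 for Fth1, 0.15 for Ftl1, 1.84 for Slc40a1, 0.16 for Gpx4 and -0.43 for Acsl4. For B16F10 minus B16F0 they were 0.33 for Tfrc, -0.16 for Slc11a2, -0.16 for Ftl1, -0.27 for Ncoa4, 0.99 for Slc40a1, 0.14 for Gpx4 and 0.44 for Aifm2. All 21 remained called in every refit run, other scalings, filters and single libraries left out included. The pairs share libraries, so the 3 values of a gene are not independent. No group has the 4 libraries needed to look for a single library far from the rest.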

How the results depend on the processing

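Under other tools (DESeq2) and scalings (RLE, upper quartile), without the expression filter or with a minimum of 10 counts per library, in separate fits and at a threshold of 0.01, every count of the 10 genes and of the list genes called stayed within 1.5 times its reported value. So did the counts of the 10 genes with the added copies, a setting not run for the list genes. A limit of 0.5 on the absolute log2 fold change left 0 of 6 genes called for SX-682 in Melan-A, 5 of 10 in B16F0 and 4 of 9 in B16F10, for untreated lines 3 of 7 (B16F0 minus Melan-A), 4 of 10 (B16F10 minus Melan-A) and 4 of 9 (B16F10 minus B16F0), and for differences in response 2, 2 and 1 of 7 in the same order. Of list genes it left 15 of 57 in Melan-A, 19 of 61 in B16F0, 25 of 60 in B16F10 and 11 of the 43 called in each line. Leaving out 1 library gave 4 to 5 genes for SX-682 in Melan-A, 8 to 10 in B16F0 and 8 to 9 in B16F10, 7 to 8, 10 to 10 and 9 to 9 for the untreated lines, and 7 to 9, 7 to 7 and 7 to 8 for the differences in response, and 52 to 56, 53 to 58, 56 to 57 and 39 to 43 list genes.

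Same-numbered libraries did not deviate together (correlations of 0.00108, 0.0222 and 0.00975 between control and SX-682 in Melan-A, B16F0 and B16F10, and of 0.0244, -0.0234 and -0.0204 between the controls). A replicate block in the fit called 6, 10 and 9 genes for SX-682, 7, 10 and 9 for the untreated lines and 7, 7 and 7 for the differences in response, and 57, 60, 61 and 43 list genes.

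Of 1200 log2 fold changes of single genes under an alternative, 1139 kept their direction and their side of the threshold, 15 lost the call, 12 gained it and 34 changed sign. The cause was not tested. The sign changes were all of values not called in the reported fit. Under scaling or filter alternatives these were Ireb2 (0.01) and Gpx4 (0.01) for untreated B16F0 minus Melan-A with upper quartile scaling, Aifm2 for untreated B16F10 minus B16F0 with upper quartile scaling (-0.05) and at least 10 counts (-0.02), Ireb2 (-0.00) and Ncoa4 (-0.01) for the difference in response between B16F10 and Melan-A with DESeq2, with RLE scaling, in separate fits and with either filter, and Fth1 (-0.00) for that between B16F10 and B16F0 with DESeq2 and RLE scaling. With single libraries left out, the ranges of those values whose sign turned were -0.02 to 0.19 for Slc40a1 with SX-682 in Melan-A, -0.22 to 0.00 for Slc40a1 and -0.07 to 0.01 for Ireb2 between untreated B16F0 and Melan-A, -0.02 to 0.04 for Aifm2 between untreated B16F10 and B16F0, and, for the difference in response, -0.02 to 0.04 for Gpx4 (B16F0 minus Melan-A), -0.04 to 0.05 for Ireb2 and -0.06 to 0.04 for Ncoa4 (B16F10 minus Melan-A) and -0.05 to 0.08 for Fth1 (B16F10 minus B16F0). The lowest count of any of the 10 genes in a library was 173.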

Other observations

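Some genes of the 4 lists were picked out after their values were seen. Nqo1, a quinone reductase that is often read as a target of the antioxidant factor encoded by Nfe2l2, was scarce in every library. It was at 0.648 and 0.451 CPM in Melan-A controls and 0.14 and 0.107 CPM with SX-682, at 1.4 and 1.56 CPM in B16F0 controls and 3.08 and 3.03 CPM with SX-682, and at 0.0992 and 0.0782 CPM in B16F10 controls and 0.297 and 0.222 CPM with SX-682. It fell in Melan-A (log2 -2.14, SE 0.4, adjusted p = 3.9e-05) and rose in B16F0 (1.05, SE 0.27, adjusted p = 0.0014) and B16F10 (1.54, SE 0.51, adjusted p = 0.013). The response differed between B16F0 and Melan-A by 3.19 (adjusted p = 3.3e-06) and between B16F10 and Melan-A by 3.68 (adjusted p = 3.6e-05). The B16F10 controls of Nqo1 were close to the floor of 3 counts, which was 0.0496 and 0.0469 CPM there. In the Melan-A libraries with SX-682 the floor was 0.0421 and 0.0399 CPM. Lcn2, a secreted protein that carries iron bound to siderophores, was at 5 and 6.28 CPM in Melan-A controls, 0.0534 and 0.0892 CPM in B16F0 controls and 0.942 and 0.61 CPM in B16F10 controls. With SX-682 it was at 6.56 and 6.9 CPM, 0.197 and 0.415 CPM and 1.85 and 2.43 CPM in the same order. By the edgeR test the log2 rises were 2.02 in B16F0 (adjusted p = 0.0026) and 1.46 in B16F10 (adjusted p = 6.7e-06). In Melan-A, which held the most Lcn2, the value was 0.25 (SE 0.17, adjusted p = 0.24). The B16F0 controls were close to the floor of 3 counts, which was 0.04 and 0.0446 CPM in those libraries.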
